A study of Mus musculus with 6 samples.

Results

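The 36 genes described here are members of the Wnt pathway, genes that it switches on, and genes known from the base of the intestinal crypt. They were taken by name from a given list, and all 36 were found among the 52550 genes for which the RNA-seq of mouse colon epithelium gives a value. Their levels were compared between 3 *Zfp90*fl/fl and 3 *Zfp90*ΔIEC mice, with the pathway's own components set against its target genes. In the *Zfp90*ΔIEC mice, the gene of a zinc finger protein is deleted by a Cre recombinase under the Villin promoter, which is active in the intestinal epithelium, so that a part of *Zfp90* is lost in epithelial cells and not in other cells. The *Zfp90*fl/fl mice carry the same floxed alleles without Cre. All 6 mice were C57BL/6 males, 6 to 8 weeks old by the labels, which do not say at which step. By the labels they had received the carcinogen azoxymethane (AOM, 10 mg/kg) and, from 5 days later, 3 cycles of 7 days of dextran sulfate sodium (DSS, 2%) in the drinking water and 14 days of plain water, and were killed on day 80. The study's methods give another DSS concentration and a single age at injection. There was no untreated group, so every value below is a level in treated colon. The epithelium was released from the tissue with EDTA and DTT. Mice were kept apart by genotype after weaning, and cage and genotype cannot be told apart.

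The labels of the samples were checked first. The genotype fields of *Zfp90*ΔIEC replicates 2 and 3 name *Zfp91* and *Zfp92*, while their titles place them with the knockout, and the titles were followed. Levels are in FPKM, the fragments read from a gene scaled to the length of its transcript and to the depth of the library, and values of a genotype are given in the order of replicates 1, 2 and 3. The controls had 0.63, 0.49 and 0.569 FPKM of *Zfp90* transcript, and the knockouts 0.0846, 0.195 and 0.166. All 3 knockout samples were below all 3 controls, with a difference of -0.44 ± 0.0565 (SE) on the log2(FPKM + 1) scale that did not pass the test across all genes (adjusted p = 0.123, limma without a filter on low values). The epithelial markers *Epcam*, *Cdh1*, *Vil1*, *Krt8*, *Krt18*, *Krt19*, *Cldn7* and *Cdx2* summed to 5870 to 6630 FPKM in *Zfp90*fl/fl and to 5800 to 6300 FPKM in *Zfp90*ΔIEC mice, whereas 18 leukocyte markers summed to at most 9.61 FPKM 9 fibroblast markers to at most 4.06, 5 endothelial markers to at most 0.637 and 6 muscle and glia markers to at most 1.23 FPKM in any sample. Of the epithelial markers *Krt18* alone did not overlap, at 290 to 315 FPKM in *Zfp90*fl/fl and 324 to 367 FPKM in *Zfp90*ΔIEC mice (adjusted p = 0.24, limma). Beside it, 8.73% of all genes tested were higher in *Zfp90*ΔIEC mice without overlap. The depth, estimated from the steps between low values, was 25.6 to 28.5 M fragments per sample.

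Wnt proteins bind Frizzled receptors together with the co-receptors *Lrp5* and *Lrp6*, and this stops the complex of *Apc*, Axin and kinases from marking β-catenin for destruction. β-catenin, encoded by *Ctnnb1*, then enters the nucleus and acts with the Tcf and Lef factors on target genes, several of which encode inhibitors of the pathway itself. In the colon the pathway is most active at the crypt base and maintains its stem cells, and its constant activation by mutation of *Apc* or *Ctnnb1* is a common first step of colorectal tumours. In AOM-treated mice, mutations of *Ctnnb1* are known from such tumours.

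Of the 36 genes, 26 reached at least 1 FPKM in at least 3 samples and were tested among 11564 genes, and the other 10 (*Lef1*, *Nkd1*, *Notum*, *Sp5*, *Lgr5*, *Ascl2*, *Olfm4*, *Tnfrsf19*, *Slc14a1* and *Dkk3*) did not. None of the 26 genes passed the threshold of an adjusted p under 0.05 (limma on log2(FPKM + 1) with Benjamini-Hochberg adjustment), where 23 of all genes tested, or 0.199%, did, 15 of them lower and 8 higher in *Zfp90*ΔIEC mice. At an unadjusted p under 0.05 in the same limma fit, 5 of the 26 (*Prom1*, *Cd44*, *Bmi1*, *Tcf7* and *Apc*) stood against 14.6% of all genes tested. The 3 values of each genotype did not overlap for 3 of the 26 that were lower in *Zfp90*ΔIEC mice (*Prom1*, *Bmi1* and *Tcf7*), against 12.6% of all genes, and for 1 that was higher (*Cd44*), against 8.73% of all genes. Read against these shares, the counts do not set the members apart. The median difference over the 26 was -0.0122 on the log2(FPKM + 1) scale, beside -0.0227 over all 11564 genes, with 14 values below and 12 above 0. Of the 26, 15 differed by less than 0.1 on that scale in either direction, as did 55.2% of all genes, and 22 by less than 0.3, as did 91.3% of all genes. In bulk epithelium a lower value can come from fewer cells that express a gene or from less RNA of it per cell, and these cannot be told apart here.

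Levels differed widely among the 36 genes. *Ctnnb1* was highest, with a mean of 111 FPKM over all 6 samples, followed by the ion transporter *Slc12a2* at 54.9, *Prom1* at 38.5 and the R-spondin receptor *Lgr4* at 33.6 FPKM. The stem cell receptor *Lgr5* was in place 28 of 36 at 0.802 FPKM, and *Olfm4*, a stem cell marker of the small intestine, was lowest at 0.0195 FPKM, with a value of 0 in 4 of the 6 samples. Of the receptors, *Lgr4* and *Fzd5* (21.1 FPKM) were among the highest 5 and *Fzd7* (2.79 FPKM) was in place 24. The plot of levels by mouse shows every gene.

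**Figure D1:**
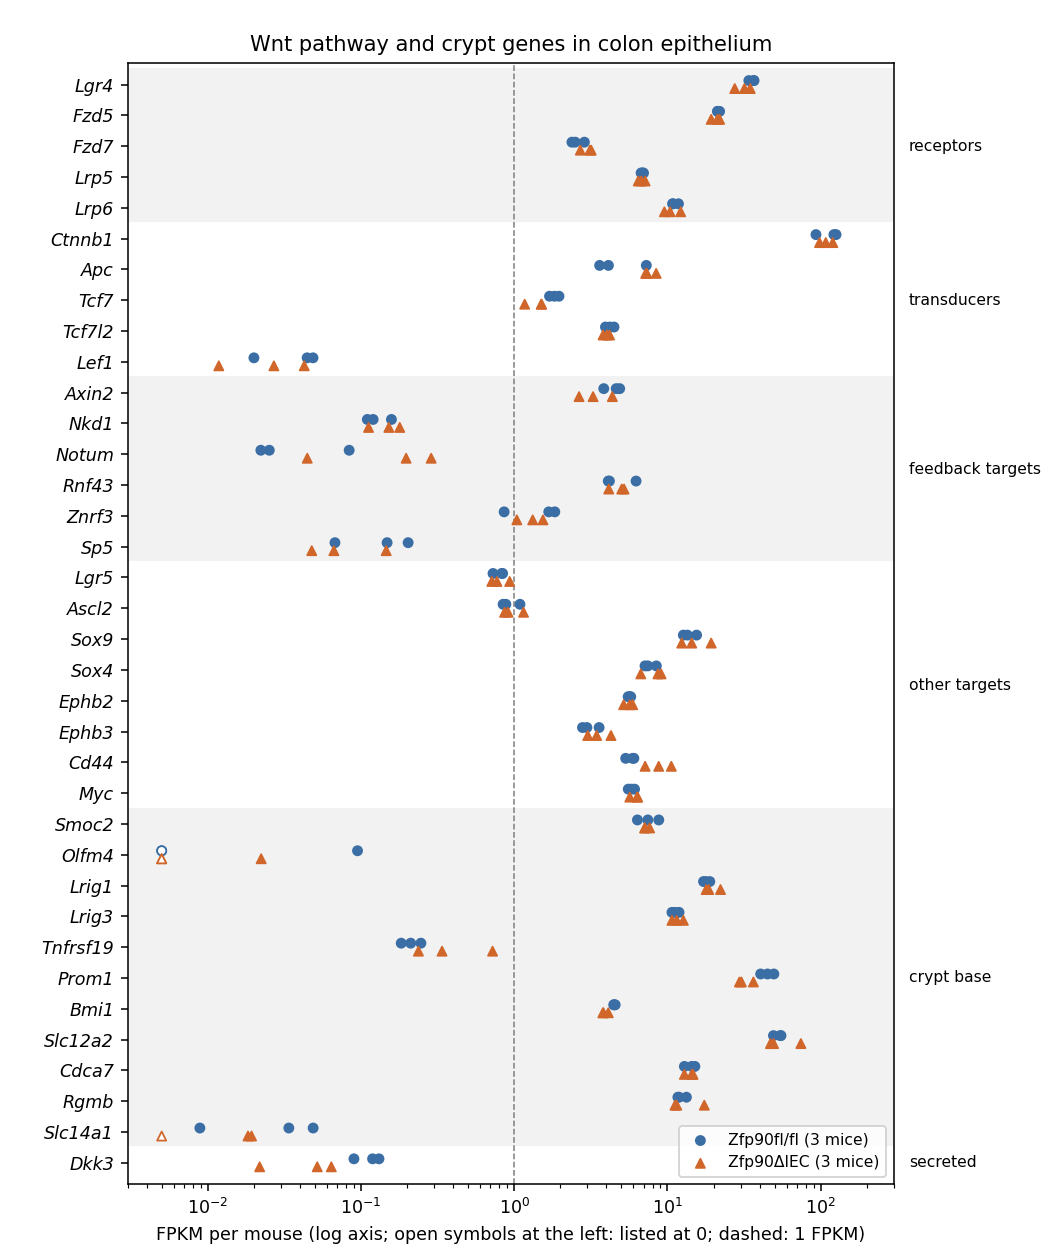
Level of each of the 36 genes in every mouse, in FPKM on a log axis, grouped by role, with circles for 3 *Zfp90*fl/fl and triangles for 3 *Zfp90*ΔIEC mice, open symbols for values of 0 and a dashed line at 1 FPKM. The symbols of both genotypes lie over each other for most genes, and they stand apart for *Prom1*, *Bmi1*, *Tcf7* and *Dkk3* (lower in *Zfp90*ΔIEC) and for *Cd44* (higher).

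Tcf and Lef factors bind short words of DNA, and *Sp5*, *Cd44* and *Prom1* are shown as a known Wnt target with such words near its start and as the members with the smallest adjusted p in each direction. Each is the 250 bases before a transcript start as given by RefSeq on GRCm38.p6, 5′ to 3′ on the strand of the gene, with the searched words in capitals.
Sp5, chr2:70474673-70474922, plus strand: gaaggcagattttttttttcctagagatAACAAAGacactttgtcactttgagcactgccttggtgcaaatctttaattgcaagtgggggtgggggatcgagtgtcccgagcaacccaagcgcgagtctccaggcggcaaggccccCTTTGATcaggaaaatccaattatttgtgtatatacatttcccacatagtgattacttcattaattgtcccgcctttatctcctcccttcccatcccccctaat
Cd44, chr2:102901666-102901915, minus strand: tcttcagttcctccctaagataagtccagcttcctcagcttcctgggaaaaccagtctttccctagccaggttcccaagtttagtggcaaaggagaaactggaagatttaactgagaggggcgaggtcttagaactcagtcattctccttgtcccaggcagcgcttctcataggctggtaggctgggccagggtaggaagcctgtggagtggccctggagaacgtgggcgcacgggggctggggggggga
Prom1, chr5:44101737-44101986, minus strand: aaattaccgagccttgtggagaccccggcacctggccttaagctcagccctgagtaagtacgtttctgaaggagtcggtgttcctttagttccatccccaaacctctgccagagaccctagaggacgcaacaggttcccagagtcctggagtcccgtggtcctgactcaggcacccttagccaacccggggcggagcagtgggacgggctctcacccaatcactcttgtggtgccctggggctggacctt
The words searched were CTTTG followed by any pair of the letters A and T, on both strands, from 250 bases before to 50 bases after each start. *Sp5* held 2 of them, at 222 and 104 bases before its start, and the windows of *Cd44* and *Prom1* held none. Windows were given for 24 of the 36 genes, and 5 of these genes (*Fzd7*, *Lef1*, *Sp5*, *Tcf7l2* and *Tnfrsf19*) had a word in at least 1 window, beside 18.9% of 27025 genes. At least 2 words, as in *Sp5*, stood in 1.94% of all 32851 windows. These are matches of letters only, and they do not show binding.

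The receptors were measured at moderate to high levels and differed little between genotypes. *Lgr4*, which binds R-spondins and so keeps Frizzled receptors at the cell surface, was at 34.0, 36.6 and 36.7 FPKM in *Zfp90*fl/fl and at 34.7, 27.5 and 31.8 FPKM in *Zfp90*ΔIEC mice. Its groups overlapped through *Zfp90*ΔIEC replicate 1, and the difference of -0.19 ± 0.09 (SE) on the log2(FPKM + 1) scale did not pass (adjusted p = 0.396, limma). *Fzd7*, a Frizzled receptor used by intestinal stem cells, had 2.5, 2.38 and 2.87 FPKM in *Zfp90*fl/fl and 3.12, 2.7 and 3.18 FPKM in *Zfp90*ΔIEC mice, again with overlap (log2 difference 0.16, adjusted p = 0.434, limma). *Fzd5*, a Frizzled of the crypt and of Paneth cells, lay between 19.3 and 21.9 FPKM in all 6 samples. The co-receptors overlapped between genotypes, with *Lrp5* between 6.45 and 7.15 FPKM and *Lrp6* between 9.55 and 12.2 FPKM. For *Lrp5* the 95% interval of the log2 difference ran from -0.15 to 0.12, and for *Lrp6* from -0.27 to 0.16.

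Of the transducers, *Ctnnb1* was at 93.2, 126 and 122 FPKM in *Zfp90*fl/fl and at 98.3, 108 and 120 FPKM in *Zfp90*ΔIEC mice. Its genotypes overlapped fully, with a log2 difference of -0.06 and a 95% interval from -0.37 to 0.25. This is the transcript of β-catenin, while the pathway acts on the protein, which was not measured here. *Apc*, the scaffold of the destruction complex and a tumour suppressor, was at 4.12, 3.61 and 7.28 FPKM in *Zfp90*fl/fl and at 8.44, 7.21 and 7.34 FPKM in *Zfp90*ΔIEC mice. *Zfp90*fl/fl replicate 3 lay among the knockout values and the other controls lay well below them. The log2(FPKM + 1) difference of *Apc* was 0.58 ± 0.21 (SE) with a 95% interval from 0.08 to 1.07, and did not pass the test (adjusted p = 0.285, limma). It was the largest of the 36 genes on this scale. By the ratio of mean FPKM, low genes differed by a larger factor than *Apc* (1.53). These were *Notum* (4.04) and *Tnfrsf19* (2.03) upwards, and *Olfm4* (0.236), *Dkk3* (0.405), *Slc14a1* (0.412) and *Sp5* (0.622) downwards.

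*Tcf7*, a DNA-binding partner of β-catenin that is also a Wnt target and is abundant in T cells, was at 1.96, 1.7 and 1.83 FPKM in *Zfp90*fl/fl and at 1.17, 1.51 and 1.5 FPKM in *Zfp90*ΔIEC mice. The groups did not overlap, and the log2 difference of -0.24 ± 0.0867 (SE) did not pass (adjusted p = 0.274, limma). The T cell marker *Cd3e*, at 0.359 to 0.522 FPKM in *Zfp90*fl/fl and 0.133 to 0.347 FPKM in *Zfp90*ΔIEC mice, was lower beside it. *Cd2* was also lower without overlap, while *Cd3d*, *Cd3g*, *Cd4* and *Cd8a* had lower means but overlapped between genotypes. All 18 leukocyte markers had a lower mean in *Zfp90*ΔIEC mice, 15 of them stayed under 1 FPKM in every sample, their sum was 6.74 to 9.61 FPKM in *Zfp90*fl/fl and 2.54 to 3.65 FPKM in *Zfp90*ΔIEC mice, and the neutrophil genes *S100a8* and *S100a9* were listed at 0 in all 3 knockout samples. Of these markers *Itgam*, an integrin of myeloid cells, was at 0.943, 1.01 and 0.928 FPKM in *Zfp90*fl/fl and at 0.151, 0.132 and 0.18 FPKM in *Zfp90*ΔIEC mice and passed the test (log2 difference -0.76 ± 0.0481 SE, adjusted p = 0.0199, limma without the filter). The granulocyte receptor gene *Csf3r*, at 0.26, 0.277 and 0.262 FPKM and at 0, 0 and 0.018 FPKM, passed as well (log2 difference -0.33 ± 0.0181 SE, adjusted p = 0.0177, limma without the filter), in a fit that called 0.0539% of 27805 genes and no member. With single samples left out, the call of *Itgam* was lost each time (adjusted p from 0.0648 to 0.146, limma) and that of *Csf3r* was lost except without *Zfp90*fl/fl replicate 3 (0.0477 to 0.13), and with the replicate block they had adjusted p of 0.291 and 0.246 (limma). The part of these cells in the difference of *Tcf7* was not tested. *Tcf7l2*, the main Tcf factor of the intestinal epithelium, was at 3.94 to 4.48 FPKM in *Zfp90*fl/fl and at 3.8 to 4.19 FPKM in *Zfp90*ΔIEC mice. *Lef1* did not exceed 0.0486 FPKM in any sample.

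The feedback targets, which encode inhibitors or repressors of Wnt signalling and are read as a sign of its activity, did not move together. *Axin2*, the usual reporter gene of the pathway, was at 4.88, 4.63 and 3.84 FPKM in *Zfp90*fl/fl and at 4.37, 2.65 and 3.27 FPKM in *Zfp90*ΔIEC mice. The lowest control lay below the highest knockout sample, and the log2 difference of -0.31 ± 0.149 (SE), with a 95% interval from -0.67 to 0.04, did not pass (adjusted p = 0.395, limma). *Rnf43* and *Znrf3* encode ubiquitin ligases that remove Frizzled receptors from the surface. *Rnf43* was at 6.24, 4.18 and 4.11 FPKM in *Zfp90*fl/fl and at 5.21, 5.03 and 4.14 FPKM in *Zfp90*ΔIEC mice, and *Znrf3* lay between 0.859 and 1.84 FPKM in the controls and between 1.04 and 1.54 FPKM in the knockouts. The knockout samples of both genes lay inside the range of the controls.

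The other 3 feedback targets were near the limit of detection. *Nkd1*, an antagonist of Dishevelled, was at 0.11 to 0.158 FPKM in *Zfp90*fl/fl and at 0.112 to 0.179 FPKM in *Zfp90*ΔIEC mice. *Sp5*, a transcription factor that lowers the expression of Wnt targets and whose promoter is printed above, was at 0.148, 0.203 and 0.0676 FPKM and at 0.146, 0.0665 and 0.0477 FPKM. *Notum*, a secreted enzyme that inactivates Wnt proteins, was at 0.0837, 0.0252 and 0.0222 FPKM in *Zfp90*fl/fl and at 0.197, 0.287 and 0.0446 FPKM in *Zfp90*ΔIEC mice. The mean of *Notum* was 4.04 times as high in the knockouts, but its values rest on an estimated 1.5 to 20.0 fragments per sample and the groups overlap (log2 difference 0.17, adjusted p = 0.546, limma without the filter).

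Among the other targets, *Cd44* stood out. *Cd44* encodes a receptor for hyaluronan that is found on crypt cells, on tumour cells and also on leukocytes. It was at 6.04, 5.92 and 5.34 FPKM in *Zfp90*fl/fl and at 10.6, 8.77 and 7.15 FPKM in *Zfp90*ΔIEC mice. Every knockout sample was above every control, with means of 5.77 ± 0.372 and 8.82 ± 1.7 FPKM (SD, n = 3 each), a ratio of 1.53 and a log2 difference of 0.52 ± 0.126 (SE) with a 95% interval from 0.22 to 0.82. This did not pass the test across all genes (adjusted p = 0.134, limma). The sum of leukocyte markers was 2.54 to 3.65 FPKM in these knockout samples and 6.74 to 9.61 FPKM in the controls, and the part of leukocytes in the level of *Cd44* was not tested.

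*Lgr5*, the marker of the crypt stem cell, was at 0.84, 0.829 and 0.727 FPKM in *Zfp90*fl/fl and at 0.934, 0.714 and 0.771 FPKM in *Zfp90*ΔIEC mice. The genotypes overlapped, and the 95% interval of the log2 difference of 0.005 ran from -0.19 to 0.2 (limma without the filter). *Ascl2*, a transcription factor of the same stem cells, was at 0.846 to 1.09 FPKM in *Zfp90*fl/fl and at 0.865 to 1.15 FPKM in *Zfp90*ΔIEC mice. *Myc*, a driver of growth, lay between 5.55 and 6.1 FPKM in the controls and between 5.68 and 6.4 FPKM in the knockouts, and its 95% interval ran from -0.09 to 0.22. *Sox9*, a transcription factor of the crypt base, was at 15.5, 12.7 and 13.5 FPKM and at 19.3, 12.4 and 14.4 FPKM, so that only *Zfp90*ΔIEC replicate 1 lay above the controls. *Sox4* was at 7.14 to 8.46 FPKM in *Zfp90*fl/fl and at 6.7 to 9.09 FPKM in *Zfp90*ΔIEC mice. *Ephb2* and *Ephb3*, receptors that keep crypt cells in place, overlapped as well, with *Ephb2* between 5.18 and 5.93 FPKM and *Ephb3* between 2.79 and 4.28 FPKM over all 6 samples.

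**Figure D2:**
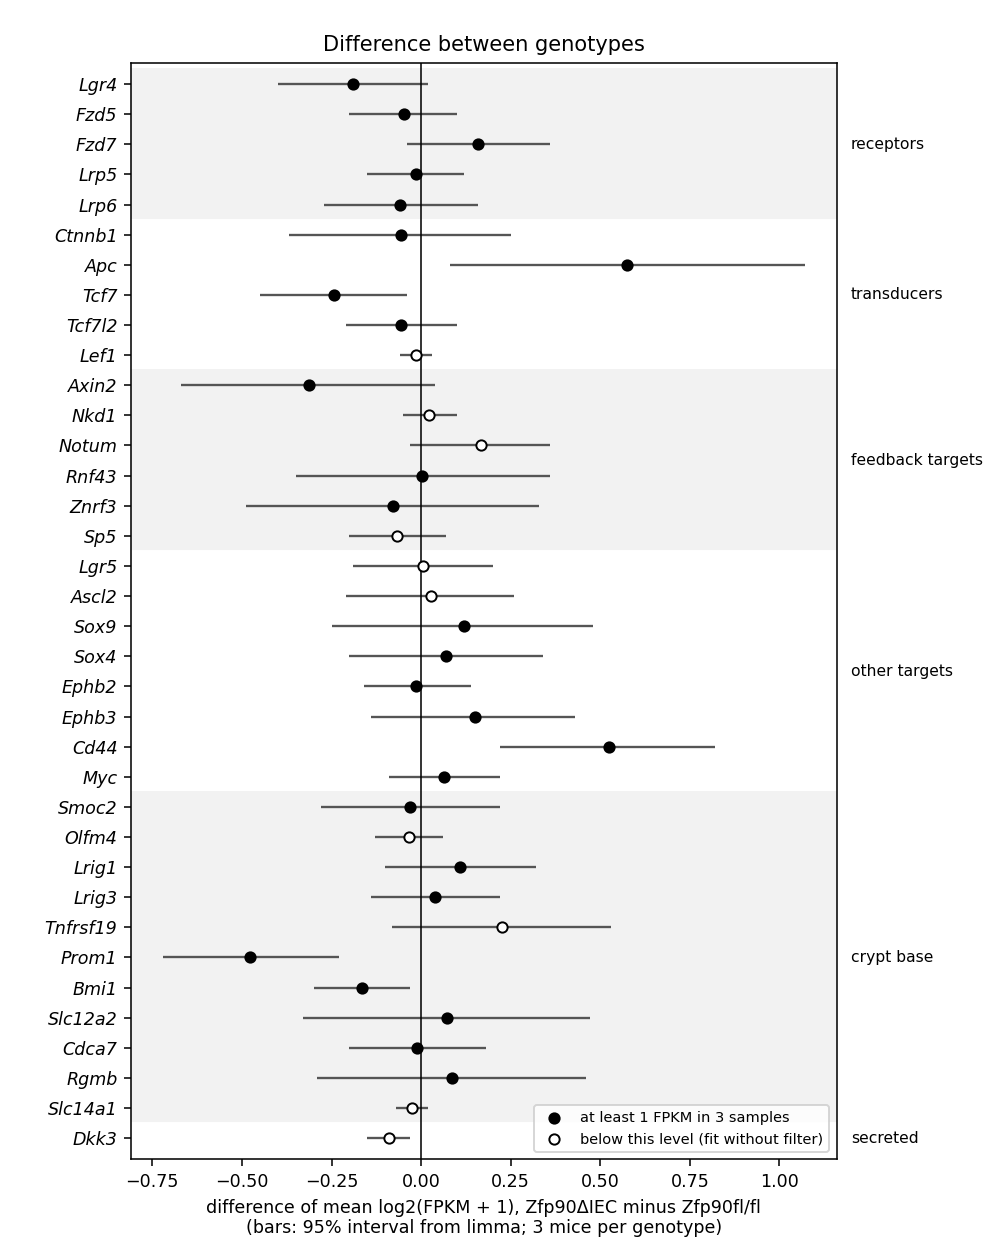
Difference between genotypes for each of the 36 genes on the log2(FPKM + 1) scale, *Zfp90*ΔIEC minus *Zfp90*fl/fl, with bars for the 95% interval from limma (3 mice per genotype) and open symbols for the 10 genes below the filter on low values. Intervals of single genes leave 0 for *Apc*, *Cd44*, *Tcf7*, *Prom1*, *Bmi1* and *Dkk3*, and no gene passed the test across all genes.

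The crypt base genes held the member with the smallest adjusted p. *Prom1*, which encodes the membrane protein prominin 1 (CD133) and marks crypt cells and some tumour cells, was at 40.6, 49.5 and 45.0 FPKM in *Zfp90*fl/fl and at 36.4, 30.4 and 29.5 FPKM in *Zfp90*ΔIEC mice. All knockout samples lay below all controls, with means of 45.0 ± 4.43 and 32.1 ± 3.76 FPKM (SD, n = 3 each), a ratio of 0.713 and a log2 difference of -0.48 ± 0.104 (SE) with a 95% interval from -0.72 to -0.23. The difference did not pass (adjusted p = 0.12, limma). *Prom1* lies on chromosome 5 from 43993620 to 44102032 (GRCm38), and its exons overlap those of another gene on the opposite strand.

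*Bmi1*, a Polycomb protein used as a marker of reserve stem cells, was at 4.5, 4.46 and 4.56 FPKM in *Zfp90*fl/fl and at 3.79, 3.82 and 4.11 FPKM in *Zfp90*ΔIEC mice. The groups did not overlap and the controls lay within 0.1 FPKM of each other, but the log2 difference of -0.17 ± 0.0574 (SE) did not pass (adjusted p = 0.262, limma). *Slc12a2*, a chloride transporter of crypt cells, was at 54.5, 55.1 and 49.2 FPKM in *Zfp90*fl/fl and at 74.3, 47.0 and 49.3 FPKM in *Zfp90*ΔIEC mice. *Rgmb*, a co-receptor for bone morphogenetic proteins, was at 13.3, 11.7 and 11.9 FPKM and at 17.4, 11.2 and 11.5 FPKM. For both genes *Zfp90*ΔIEC replicate 1 was far above the other knockout samples, which lay near or below the lowest control.

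The remaining crypt base genes overlapped between genotypes. *Lrig1*, a brake on growth factor receptors in stem cells, was at 17.2 to 18.9 FPKM in *Zfp90*fl/fl and at 17.9 to 22.2 FPKM in *Zfp90*ΔIEC mice, and its relative *Lrig3* lay between 10.7 and 12.7 FPKM in all samples. *Cdca7*, a *Myc*-responsive gene of dividing cells, lay between 12.9 and 15.1 FPKM, and *Smoc2*, a secreted matrix protein of the crypt base, between 6.37 and 8.78 FPKM. *Tnfrsf19*, a receptor of the tumour necrosis factor family found on *Lgr5* cells, was at 0.211, 0.246 and 0.183 FPKM in *Zfp90*fl/fl and at 0.722, 0.338 and 0.237 FPKM in *Zfp90*ΔIEC mice. The lowest knockout value lay inside the controls, and the log2 difference was 0.22 (adjusted p = 0.628, limma without the filter). The urea transporter gene *Slc14a1* did not exceed 0.0487 FPKM.

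*Dkk3*, which encodes a secreted protein of the Dickkopf family, was at 0.131, 0.0899 and 0.119 FPKM in *Zfp90*fl/fl and at 0.0218, 0.0518 and 0.064 FPKM in *Zfp90*ΔIEC mice. The groups did not overlap and the mean was 0.405 times that of the controls, from an estimated 2.0 to 11.0 fragments per sample (log2 difference -0.09, adjusted p = 0.292, limma without the filter). Beside it, 9 fibroblast markers summed to 3.43 to 4.06 FPKM in *Zfp90*fl/fl and to 2.34 to 3.53 FPKM in *Zfp90*ΔIEC mice, with *Col1a1* below 0.1 FPKM in every sample and *Pdgfrb* at 1.78 to 1.99 FPKM and 1.32 to 1.77 FPKM. Of the 9, 7 had a lower and 2 a higher mean in *Zfp90*ΔIEC mice, and all but *Pdgfrb* overlapped between genotypes. Among all genes tested, 12.6% were lower without overlap. Whether other cells carry *Dkk3* here was not tested.

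Many of the members were highest in the same mouse. *Zfp90*ΔIEC replicate 1 held the highest value for 11 of the 26 tested genes (42.3%), while it held the highest value for 17.9% of all genes tested. These 11 were *Lrp5*, *Lrp6*, *Apc*, *Sox9*, *Sox4*, *Ephb3*, *Cd44*, *Lrig1*, *Lrig3*, *Slc12a2* and *Rgmb*, which include receptors, targets and crypt base genes. Of 7 goblet cell markers, *Muc2*, *Agr2* and *Zg16* were also highest in this sample and *Tff3*, *Fcgbp*, *Clca1* and *Spdef* were not, with the mucin *Muc2* at 1010 FPKM beside 593 and 465 FPKM in the other knockout samples, and their part was not tested. Without this sample the median difference of the 36 genes was -0.0444 instead of -0.0122, and the differences of single genes turned for *Sox9* (-0.05), *Slc12a2* (-0.13) and *Rgmb* (-0.11), among others. *Cd44* stayed higher and *Prom1* stayed lower in *Zfp90*ΔIEC mice whichever sample was left out, with log2 differences from 0.4 to 0.65 and from -0.57 to -0.41.

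**Figure D3:**
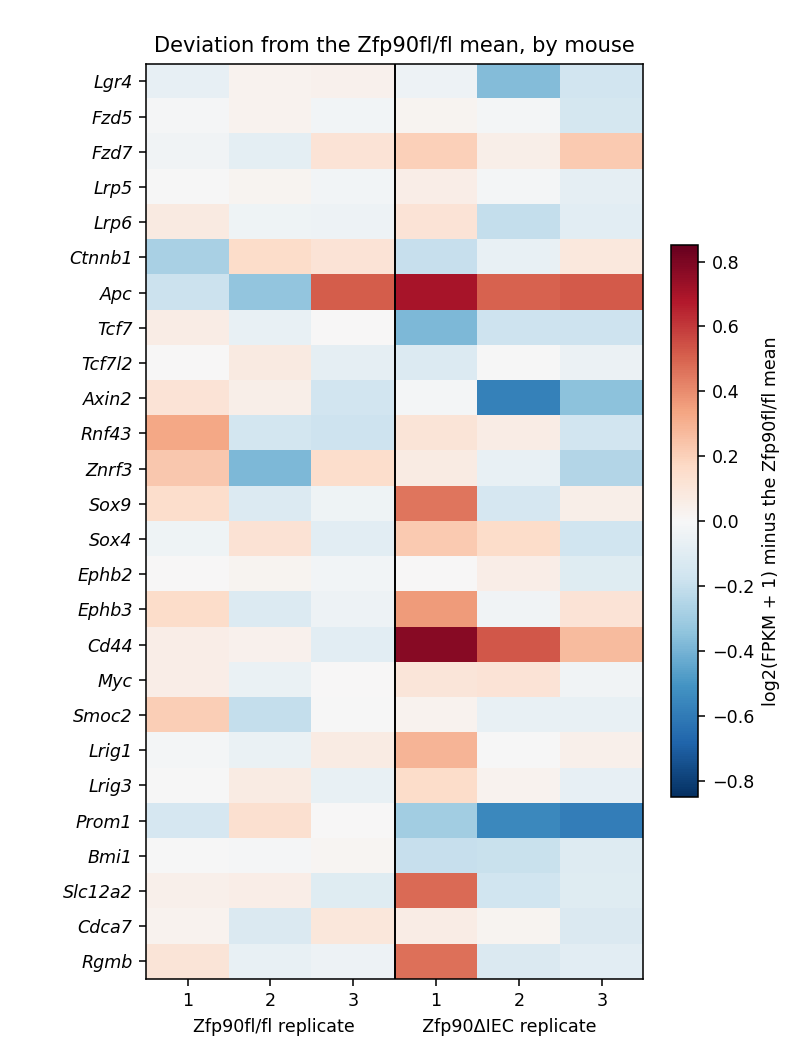
Deviation of the 26 tested genes from their *Zfp90*fl/fl mean in each of the 6 mice, on the log2(FPKM + 1) scale, with red above and blue below the mean. The column of *Zfp90*ΔIEC replicate 1 is redder than those of replicates 2 and 3, and *Prom1*, *Bmi1* and *Tcf7* are blue and *Cd44* red in all 3 knockout columns.

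Pathway components were then set against pathway targets, since targets are read as a sign of the signal. The 10 components (receptors and transducers) had a mean log2(FPKM + 1) of 3.14 ± 0.0526 in *Zfp90*fl/fl and 3.146 ± 0.035 in *Zfp90*ΔIEC mice (SD, n = 3 each), and the 14 targets had 1.841 ± 0.0775 and 1.889 ± 0.125. Targets minus components was -1.169, -1.319 and -1.41 in the controls and -1.15, -1.245 and -1.374 in the knockouts. The ranges overlap almost fully, and the difference between genotypes of 0.0429 was smaller than the pooled SD between mice of one genotype, 0.117. Its direction turned without *Zfp90*ΔIEC replicate 1 (-0.0102), without *Zfp90*fl/fl replicate 3 (-0.0123), or with *Tcf7* and *Lef1* counted as targets (-0.013). In the other alternatives the difference stayed above 0, from 0.0331 without *Zfp90*fl/fl replicate 2 to 0.149 without both *Zfp90*ΔIEC replicates 2 and 3. By counts, 8 of 10 components were below 0 and 10 of 14 targets above 0 in the difference of single genes. Their median differences were -0.0518 and 0.025, and none of these genes passed the test. The means lean on single genes, with *Apc*, a part of the destruction complex, at 0.58 among the components and *Cd44* at 0.52 among the targets. Means without these genes were not computed. Of the 14 targets 9 reached the filter on low values, and low genes add little on this scale. The score is not a test of signal activity.

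Beyond the members, no gene tested from a further list of the pathway passed. Of 81 further genes of ligands, receptors, cytoplasmic and nuclear components and antagonists, 36 reached the filter and were tested (limma, adjusted p). The groups did not overlap for 8 of the 36 that were lower and for 1 that was higher in *Zfp90*ΔIEC mice, beside 12.6% and 8.73% of all genes. Of 25 genes of ligands and their secretion, 24 stayed under 1 FPKM in every sample, and the exception was *Wls*, the carrier that brings Wnt proteins to the cell surface, at 10.4 to 12.3 FPKM. *Pygo2*, a nuclear partner of β-catenin, was at 9.48, 9.38 and 8.57 FPKM in *Zfp90*fl/fl and at 3.13, 8.46 and 5.63 FPKM in *Zfp90*ΔIEC mice, without overlap (log2 difference -0.67 ± 0.27 SE, adjusted p = 0.324, limma). The co-repressor *Tle4* was at 14.3 to 14.8 FPKM in the controls and at 11.2 to 12.5 FPKM in the knockouts (log2 difference -0.25 ± 0.0612 SE, adjusted p = 0.134, limma). The receptor *Ryk* and the genes *Kremen1*, a Dickkopf receptor, and *Tmem64* were also lower without overlap. Their log2 differences were -0.08, -0.17 and -0.25, and none of them passed. The 1 that was higher was *Ctnnbip1*, at 3.72 to 4.82 FPKM in the controls and 5.2 to 5.5 FPKM in the knockouts (log2 difference 0.24, adjusted p = 0.308, limma).

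Of 12 further Wnt targets found, 10 were tested and none passed. The groups did not overlap for 2 that were lower and 1 that was higher in *Zfp90*ΔIEC mice, beside 12.6% and 8.73% of all genes. Over the 12 genes, 6 had a lower and 6 a higher mean. *Phlda1* was the higher 1, at 29.6 to 30.2 FPKM in *Zfp90*fl/fl and 30.6 to 31.9 FPKM in *Zfp90*ΔIEC mice. *Mmp7*, a matrix protease induced in intestinal tumours, was at 1.56, 1.84 and 1.13 FPKM in *Zfp90*fl/fl and at 0.919, 0.925 and 0.534 FPKM in *Zfp90*ΔIEC mice. All knockout values were lower, with a log2 difference of -0.48 ± 0.14 (SE) that did not pass (adjusted p = 0.199, limma). The growth factor receptor gene *Met* was lower by the same measure without overlap (log2 difference -0.21, adjusted p = 0.241, limma), and the cyclin *Ccnd1* overlapped, at 17.4 to 21.8 FPKM and 15.3 to 18.9 FPKM. Of 17 further crypt stem cell genes 10 were tested and none passed. Among these, only the potassium channel gene *Kcnq1* did not overlap, where 8.73% of all genes were higher without overlap. It was at 20.6 to 21.5 FPKM in *Zfp90*fl/fl and at 22.1 to 24.2 FPKM in *Zfp90*ΔIEC mice (log2 difference 0.14, adjusted p = 0.327, limma). *Hopx* (log2 difference 0.63, adjusted p = 0.246, limma) and *Aqp4* (-0.25, adjusted p = 0.295, limma) differed more but overlapped.

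Marker lists of dividing and of mature epithelial cells were summed beside the Wnt genes. Of all genes tested, 8.73% were higher in *Zfp90*ΔIEC mice without overlap, the share to set beside each count below. All 8 proliferation markers were higher in *Zfp90*ΔIEC mice without overlap, with sums of 111 to 121 FPKM in *Zfp90*fl/fl and 139 to 150 FPKM in *Zfp90*ΔIEC mice. Of these, *Mki67*, a marker of cycling cells, passed the test, at 22.6, 21.8 and 22.6 FPKM in the controls and 29.1, 30.2 and 30.6 FPKM in the knockouts (log2 difference 0.41 ± 0.0512 SE, adjusted p = 0.0478, limma). The call of *Mki67* held with median ratio scaling (adjusted p = 0.0411, limma) and was lost in every other alternative run, with adjusted p from 0.0561 to 0.165, among them the replicate block (adjusted p = 0.0832, limma) and the fits without any one of the 6 samples. *Cdk1* and *Ccnb1*, which drive entry into mitosis, had log2 differences of 0.42 and 0.4 and did not pass. Markers of surface colonocytes summed to 5390 to 7200 FPKM in the controls and 8090 to 12200 FPKM in the knockouts, with 4 of 8 genes higher without overlap, among them the carbonic anhydrase *Car1* (log2 difference 0.73, adjusted p = 0.162, limma) and the water channel *Aqp8* (0.58, adjusted p = 0.201, limma). *Car1* alone, at 4030 to 5630 FPKM and 6350 to 10100 FPKM, made up most of both sums. *Car4*, *Krt20*, *Slc37a2* and *Ceacam20* overlapped, and the mean of *Ceacam20* was lower in the knockouts (ratio 0.92). Goblet cell markers summed to 1900 to 2330 FPKM and 2530 to 3380 FPKM, with 3 of 7 higher without overlap, among them *Zg16* (log2 difference 0.52, adjusted p = 0.117, limma). Over the same mice the summed FPKM of the Wnt targets was 51.8 to 59.5 in the controls and 52.8 to 69.0 in the knockouts. That of the 11 crypt base genes was 163 to 169 in the controls and 190, 144 and 144 in the knockouts. The part of a different mix of epithelial cells in the values of single Wnt genes was not tested.

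**Figure D4:**
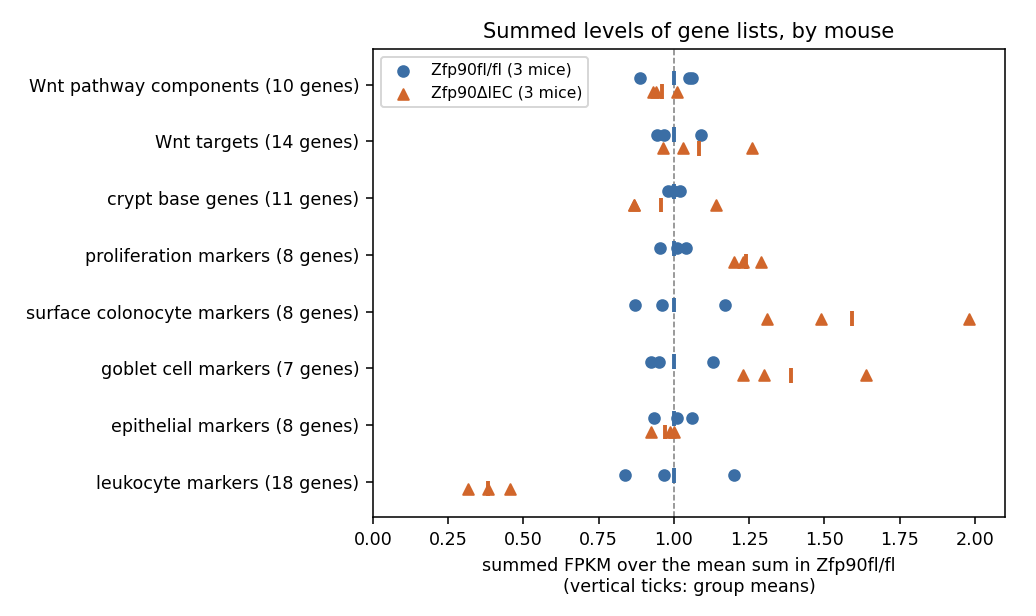
Summed FPKM of gene lists in each mouse divided by the mean sum in *Zfp90*fl/fl mice, with circles for *Zfp90*fl/fl, triangles for *Zfp90*ΔIEC and vertical ticks for group means (3 mice each). Wnt components, Wnt targets and crypt base genes overlap between genotypes, at ratios of means of 0.959, 1.08 and 0.959, while proliferation, surface colonocyte and goblet cell markers are higher (1.24, 1.59 and 1.39) and leukocyte markers lower (0.384) in every *Zfp90*ΔIEC mouse. Most of the surface colonocyte sum is *Car1*, most of the component sum *Ctnnb1*, and most of the crypt base sum *Slc12a2* and *Prom1*. The crypt base sums overlap through *Zfp90*ΔIEC replicate 1 only, at 190 FPKM beside 144 and 144 in the other knockouts and 163 to 169 in the controls.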

How the data were processed

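RNA-seq libraries of colon epithelium from 3 *Zfp90*fl/fl and 3 *Zfp90*ΔIEC mice were analysed, grouped by sample title. The authors deposited a file per mouse with 1 FPKM value per Ensembl gene, and the unit follows from their methods and from the values, since the file headers do not name it. How the FPKM were made is not settled by the sources. The study's methods name TopHat, Cuffdiff and a human genome, whereas the submitters' processing notes name FastQC, STAR 2.5, Cuffnorm, DESeq 1.22.1 and mm9, and the files list mouse genes. The libraries were strand-specific per the labels, but whether strand was used in counting is not given in the sources used here. Exons of 9 members overlap another gene, 8 of them on the opposite strand (*Fzd5*, *Ctnnb1*, *Lef1*, *Axin2*, *Notum*, *Sox4*, *Lrig1* and *Prom1*), so that their reads may be shared.

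Symbols were assigned to 52403 of 52550 genes. From the deposited FPKM, log2(FPKM + 1) was tested with limma 3.58.1 (R 4.3.3, intensity trend, two-sided, Benjamini-Hochberg over the 11564 genes that reached 1 FPKM in 3 or more samples, threshold 0.05). Genes below the filter were taken from the same fit without it (27805 genes). Differences on this scale understate the change of low genes. The files give no counts, and depth was estimated from single-transcript genes, of whose low values 57.7% to 63.2% lay within 0.1 of a whole fragment. A p-value here sets the difference between genotypes against the spread between 3 mice of each, which limma moderates with that of the other genes in the fit. Gene positions and overlaps are those of GENCODE M21 (GRCm38), promoter windows those of RefSeq (GRCm38.p6). Python 3.11.15 with pandas 2.3.3 and matplotlib 3.10.9 was used for tables and plots.

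The 36 members and all gene lists were chosen with earlier results of these data known. Genes named are the members, *Zfp90* and, of each further list, genes that passed, with or without the filter, and, among genes above it, the 2 largest differences without overlap. *Wls*, *Ccnd1*, *Agr2*, *Tff3*, *Fcgbp*, *Clca1*, *Spdef*, *Car4*, *Krt20*, *Slc37a2*, *Ceacam20*, *Cd3e*, *Cd3d*, *Cd3g*, *Cd4*, *Cd8a*, *Cd2*, *S100a8*, *S100a9* and *Col1a1* were named after their values were seen. *Phlda1*, *Hopx*, *Aqp4* and *Ctnnbip1* were likewise named after their values were seen. *Wisp1* had no match, and the same gene is listed as *Ccn4*. Alternatives were quantile normalization, scaling by median ratios, fitting without the filter or the trend, a pseudocount of 0.1, a threshold of 0.1, the replicate block, leaving out each sample and counting *Tcf7* and *Lef1* as targets. Leaving out both *Zfp90*ΔIEC samples with another genotype field was added after seeing the data.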

Additional observations from a re-analysis of the deposited data

How the results depend on the processing

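None of the 36 genes passed the test in any alternative run, including a threshold of 0.1 on the adjusted p in the otherwise unchanged fit (limma). The count of all genes called, 23, became 13 with a pseudocount of 0.1, 15 without the filter, 47 with the replicate block, 176 at an adjusted p under 0.1 and 42 without both *Zfp90*ΔIEC samples whose genotype field names another gene, which leaves 1 knockout sample whose spread is taken from the controls. Leaving out single samples gave 10 to 21 calls, with 10 without *Zfp90*fl/fl replicate 2. The median difference of the members (-0.0122) ran from -0.0444 to 0.025 without single samples and was 0.0668 without both of those *Zfp90*ΔIEC samples. Targets minus components (0.0429) ran from -0.0123 to 0.108 without single samples and was 0.0926 with a pseudocount of 0.1. Without both of those *Zfp90*ΔIEC samples it was 0.149.

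Of the comparisons of single members with an alternative, 418 kept their direction and side of the threshold and 40, over 18 genes, changed direction. With quantile normalization these were *Lrp5* (0.00331) and *Cdca7* (0.00662), and with median ratio scaling *Lrp5* (0.00566), *Ephb2* (0.00469) and *Cdca7* (0.00937). Without both *Zfp90*ΔIEC samples named above they were *Fzd5* (0.0263), *Lrp5* (0.0537), *Lrp6* (0.118), *Znrf3* (0.0716), *Sp5* (0.0104), *Ephb2* (0.00458), *Smoc2* (0.0294) and *Cdca7* (0.0619). The cause was not tested. Without single samples, direction changed within the ranges -0.0835 to 0.00425 (*Fzd5*), -0.047 to 0.0173 (*Lrp5*), -0.145 to 0.0145 (*Lrp6*), -0.194 to 0.0224 (*Ctnnb1*), -0.0853 to 0.167 (*Rnf43*), -0.27 to 0.0367 (*Znrf3*), -0.0453 to 0.042 (*Lgr5*), -0.0358 to 0.0818 (*Ascl2*), -0.0476 to 0.251 (*Sox9*), -0.00653 to 0.189 (*Sox4*), -0.0503 to 0.0318 (*Ephb2*), -0.133 to 0.0705 (*Smoc2*), -0.0547 to 0.0106 (*Olfm4*), -0.0196 to 0.0927 (*Lrig3*), -0.134 to 0.192 (*Slc12a2*), -0.0713 to 0.0438 (*Cdca7*), -0.106 to 0.19 (*Rgmb*).

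The replicate numbers are in the labels of both genotypes. Deviations from the genotype mean of samples with the same number correlated at 0.194, 0.11 and 0.0782. Every sample correlated best with its own number, which the labels do not explain. Centring each genotype on its own mean ties these correlations together, and whether samples were paired was not tested. The numbers were not taken as pairs, and with the replicate block 0 of the members passed.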
